A study of Capra hircus with 6 samples.

Results

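Complement is a group of blood and tissue proteins that marks cells and microbes for removal, and 9 of its genes, C1QA, C1QB, C1QC, C1R, C1S, C3, C7, CFI and CFD, are described here in the goat ovary. They are 9 of the 17504 genes with a value in every library, and all 9 passed the filter on low values (at least 1 FPKM in at least 3 libraries), as did 13067 genes in all. The genes were taken by symbol. The 3 C1Q genes were selected on their measured FPKM, because it differed widely between ovaries, so their spread and their breed difference are given as a description with no test. The study compared ovarian total RNA of 2 goat (Capra hircus) breeds, 3 Tibetan goats, labelled non-prolific, and 3 Jintang black goats, labelled prolific. All 6 animals were in the follicular phase, when ovarian follicles ripen before ovulation, and each gave 1 library. No treatment is recorded, and the sources used here give no ages.

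In the classical pathway, C1q binds antibody or dying cells and activates the proteases C1r and C1s, which cleave C4 and C2 to form an enzyme that cleaves C3. In the alternative pathway, factor D (CFD) cleaves factor B bound to C3b, and factor I (CFI) inactivates C3b. C5 to C9 then build the membrane attack complex, of which C7 is the subunit that first anchors the complex in a membrane. The liver makes most circulating complement, whereas C1q comes mainly from macrophages and dendritic cells, and fibroblasts make C1r, C1s and C3. In the ovary, macrophages gather around follicles and in the corpus luteum, where they clear dying cells.

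Levels are in FPKM, a fragment count scaled to transcript length and to library size, so that levels of different genes can be set side by side within a library. The sum of FPKM ran from 602255 to 682801 over the 6 libraries, and the spacing of low values put their relative depths between 0.926 and 1.02 of that of Tibetan 1, while the absolute depth is unknown. Markers of cell types found in the ovary were read out, which does not test the tissue label. The smooth muscle gene ACTA2 and the stromal gene DCN exceeded 500 FPKM in every library, and the steroidogenic regulator NR5A1 lay between 19.3 and 62.6 FPKM. The oocyte gene BMP15 did not exceed 1.73 FPKM, while ZP3 reached 10.45 FPKM in Jintang 3. The 7 oocyte markers summed to between 0.91 FPKM in Tibetan 1 and 23.6 FPKM in Jintang 3. Libraries of 1 breed differed in their follicular and luteal genes. The granulosa gene INHA ranged from 51.4 to 1194 FPKM in Tibetan ovaries and from 9.56 to 144 FPKM in Jintang ovaries. INHA was lowest in Jintang 1, as were the granulosa gene CYP19A1 (0.27 FPKM) and the theca gene CYP17A1 (1.99 FPKM). The summed granulosa markers (180.8 FPKM) and theca markers (30.6 FPKM) were also lowest there, followed by Tibetan 1 (191.8 and 47.45 FPKM). Of the 9 granulosa markers 1, INHBA, was highest in Jintang 1. Apart from INHA and CYP19A1, the granulosa markers were lowest in other ovaries. FSHR (5.94 FPKM in Jintang 1) was exceeded only in Jintang 3, and NR5A2 (15.9 FPKM) only in Jintang 2. The theca markers LHCGR and NR5A1 were lowest in Tibetan 1 and Tibetan 2. The luteal gene STAR ranged from 30.8 to 3130.4 FPKM in Jintang ovaries. The phase of each ovary was not tested.

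In every library C3 was the highest of the 9 genes and CFI the lowest. C3 ranked between 49 and 141 among all 17504 genes by FPKM, and C1R between 201 and 855. Summed over the 9 genes, the level was 1002, 1187 and 2210.2 FPKM in Tibetan 1, 2 and 3, and 2988, 1183 and 1586 FPKM in Jintang 1, 2 and 3. C3 held between 58.3% and 71.8% of this sum in 5 ovaries and 38.8% in Jintang 1. Of the 9 genes 7 peaked in Jintang 1, which was the highest library for 12.6% of all genes tested. The other two, C3 and C7, were highest in Tibetan 3 (18% of all genes tested). Without Jintang 1, Jintang 3 was the highest library for 5 of the 9, the C1Q genes, CFI and CFD. Tibetan 1 had the lowest value of 6 of the 9 genes (21% of all genes tested) and Jintang 2 that of the remaining 3, C1R, C1S and CFD (25.7% of all genes tested). These counts include the 3 C1Q genes, which were picked for their spread.

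**Figure D1:**
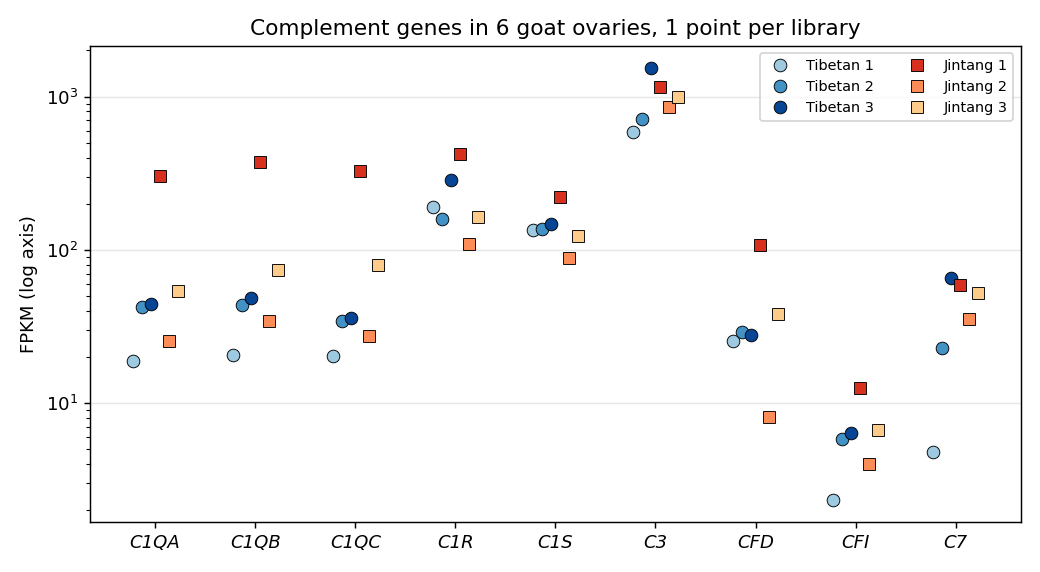
FPKM of the 9 complement genes (log axis), with 1 point per library, circles for Tibetan and squares for Jintang goats. Jintang 1 lies far above the other 5 ovaries in the C1Q genes and CFD, C3 is the highest gene in each library, and Tibetan 1 is lowest in C7 at 4.80 FPKM.

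C1QA, C1QB and C1QC encode the chains of C1q, the recognition unit of the classical pathway. They are neighbours on 1 chromosome in the ARS1.2 goat assembly, in the order C1QA, C1QC, C1QB. C1QA measured 18.7, 42.6 and 44.6 FPKM in the Tibetan goats 1, 2 and 3, against 303, 25.6 and 54.0 FPKM in the Jintang goats 1, 2 and 3. Jintang 1 was 5.61 times as high as the next ovary, Jintang 3, and the ovaries of the breeds otherwise overlapped. C1QB was at 20.5, 44.0 and 48.3 FPKM in the Tibetan and 375, 34.5 and 73.8 FPKM in the Jintang ovaries. C1QC measured 20.2, 34.4 and 36.1 FPKM in Tibetan goats and 326, 27.6 and 79.2 FPKM in Jintang goats. The order of the ovaries was the same for all 3 chains: Tibetan 1 lowest, then Jintang 2, Tibetan 2, Tibetan 3, Jintang 3 and Jintang 1. Each ovary was measured once, so no technical spread can be set against the small gaps in this order.

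Among all genes of a library, C1QA moved from rank 4906 in Tibetan 1 to rank 270 in Jintang 1, C1QB from 4563 to 224 and C1QC from 4618 to 256. The ratio of the highest to the lowest ovary was 16.2 for C1QA, 18.3 for C1QB and 16.1 for C1QC. Among the genes tested 97.6% or more had a smaller spread than each of them. C7 (97.2%) and CFD (95.4%) were close to this, and some macrophage markers were above it, such as TYROBP (98.8%). The standard deviations of C1QA, C1QB and C1QC over the 6 libraries, on the log2(FPKM + 1) scale, were 1.38, 1.42 and 1.44, where the median gene had 0.43. This spread chose the C1Q genes. Jintang 1 made most of their spread: without that ovary the log2 range of C1QA was 1.48 in place of 3.94, that of C1QB 1.80 in place of 4.13 and that of C1QC 1.92 in place of 3.95.

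The C1q protein needs all 3 chains, and their transcripts kept a similar proportion while the sum went from 59.4 FPKM (Tibetan 1) to 1004 FPKM (Jintang 1). C1QA made up between 26.1% and 35.2% of the summed C1Q FPKM, C1QB between 34.5% and 39.4%, and C1QC between 27.9% and 38.3%. In Jintang 1 the shares were 30.2%, 37.4% and 32.5%, inside the range of the other 5 ovaries for each chain. The extremes of C1QA and C1QC fell in different libraries. Jintang 3 had the lowest share of C1QA and the highest of C1QC, Tibetan 2 the highest of C1QA, and Tibetan 3 the lowest of C1QC.

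**Figure D2:**
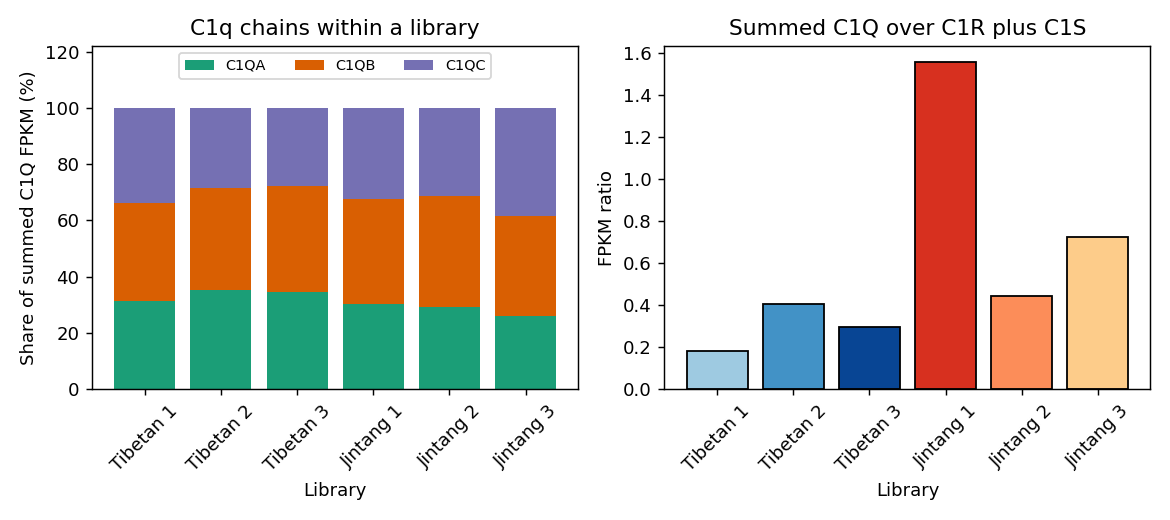
Left, share of each C1q chain in the summed FPKM of C1QA, C1QB and C1QC, in percent per library. Right, ratio of the summed C1Q FPKM to C1R plus C1S FPKM, 1 bar per library, which is 1.55 in Jintang 1 and between 0.182 and 0.723 in the other 5.

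C1q is made by macrophages, and their markers were highest in the same ovary as the C1Q genes. Of 17 listed markers 15 had a value. Jintang 1 was highest in 15 of these 15 and Tibetan 1 lowest in 11. Their summed level was 356, 993 and 501 FPKM in the Tibetan and 2928, 490.5 and 1041 FPKM in the Jintang ovaries. In whole-ovary RNA, fewer cells of a type and less RNA per cell cannot be told apart. CD68, a lysosomal protein of macrophages, was at 14.0, 62.8 and 17.5 FPKM in the Tibetan and 233, 9.83 and 67.3 FPKM in the Jintang ovaries. For TYROBP, a myeloid signalling adaptor, the Tibetan values were 10.4, 74.1 and 21.2 FPKM and the Jintang values 278, 35.9 and 85.5 FPKM. Both were highest in Jintang 1. Tibetan 2 was above Jintang 2 in both, but Jintang 2 was above Tibetan 2 in 6 of the 15 markers. All Jintang ovaries were above all Tibetan ovaries in MSR1, a scavenger receptor, and TREM2, a lipid-sensing receptor, as in 3.2% of all genes tested. These were 2 of the 13 markers that passed the filter. TREM2 measured 0.64, 5.34 and 0.17 FPKM in Tibetan goats, against 44.6, 11.1 and 29.9 FPKM in Jintang goats (log2 difference 3.48, limma adjusted p = 0.743). All 13 markers that passed the filter had a higher mean log2 level in Jintang ovaries, as had 41% of all genes tested (median 1.26), 12 of them without Jintang 1 (median 0.70), and limma called none, with an unadjusted p under 0.05 for 4 (6.17% of all genes tested). The myeloid transcription factor SPI1 was listed at 0 in Tibetan 1 and 2 and reached 2.44 FPKM in Jintang 1, and the scavenger receptor MARCO did not exceed 0.43 FPKM. The sum of luteal markers was also high in Jintang 1. Over the 5 matched genes it was 337, 509 and 2360.0 FPKM in Tibetan goats, against 6285, 18601 and 457 FPKM in Jintang goats. This sum was highest in Jintang 2, where the C1Q genes were low. TIMP1 alone held 5304 FPKM of it in Jintang 1 and 9215 FPKM in Jintang 2. STAR and CYP11A1 were no higher in Jintang 1 (139 and 515 FPKM) than in Tibetan 3 (139 and 912 FPKM). PTGFR was highest in Jintang 1 at 274 FPKM, followed by Jintang 2 at 259 FPKM. For PRLR, which binds prolactin, Jintang 1 had 53.4 FPKM, and no other ovary exceeded 2.03 FPKM. The part of macrophages or luteal cells in the C1Q levels was not tested.

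C1Q did not keep a fixed ratio to these markers. As a percentage of the marker sum, C1Q stood at 16.7%, 12.2% and 25.8% in the Tibetan and at 34.3%, 17.9% and 19.9% in the Jintang ovaries. CD74, the invariant chain of MHC class II, held much of that sum. Leaving it out gave 50.7%, 24.1% and 72.4% against 66.0%, 35.4% and 38.6%, so that Tibetan 3 and not Jintang 1 had the highest share. Tibetan 2 and 3 had nearly the same summed C1Q level, 121 and 129 FPKM, while CD68 and TYROBP were 62.8 and 74.1 FPKM in the former and 17.5 and 21.2 FPKM in the latter. The ratio of C1QA to TYROBP accordingly ran from 0.575 in Tibetan 2 to 2.11 in Tibetan 3.

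**Figure D3:**
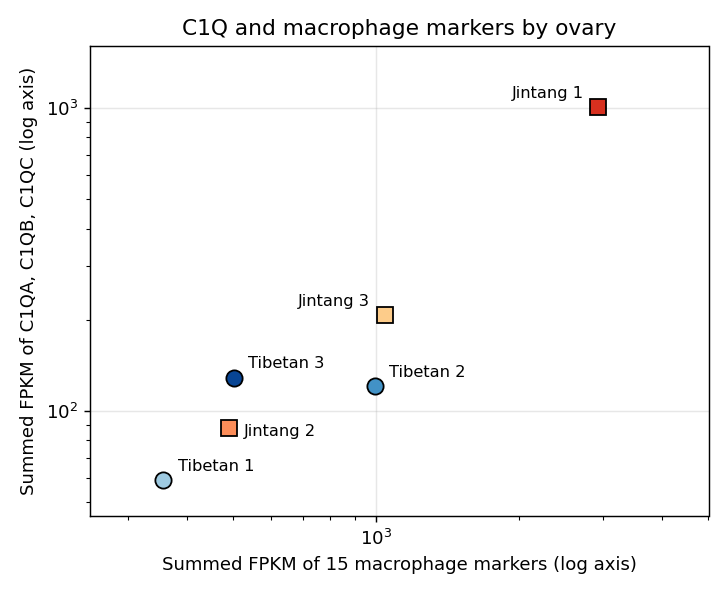
Summed FPKM of C1QA, C1QB and C1QC against the summed FPKM of 15 macrophage markers, both on log axes, 1 point per ovary. Jintang 1 stands apart on both axes at 1004 and 2928 FPKM, and Tibetan 2 and Tibetan 3 share a C1Q level at 993 and 501 FPKM of marker sum.

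C1R and C1S encode the proteases that C1q carries, and they lie next to each other in the ARS1.2 assembly. C1R measured 192, 160.2 and 285.5 FPKM in Tibetan ovaries, against 424, 109.5 and 163 FPKM in those of Jintang goats. C1S was at 134.5, 137 and 148 FPKM against 221, 88.8 and 123 FPKM. Both were highest in Jintang 1 and lowest in Jintang 2, so that the Tibetan ovaries lay inside the range of the Jintang ovaries. C1S was the steadiest of the 9 genes, with a highest-to-lowest ratio of 2.49 and a standard deviation of 0.42 on the log2 scale, just below the 0.43 of the median gene. The ratio of C1R to C1S ran from 1.17 in Tibetan 2 to 1.93 in Tibetan 3.

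Summed transcripts of C1R and C1S exceeded those of the C1Q genes in all ovaries but Jintang 1. This sets 2 genes against 3. In Jintang 1, C1R alone (424 FPKM) was above each C1Q gene (303, 375 and 326 FPKM), and C1S (221 FPKM) was below each. Summed C1Q over C1R plus C1S was 0.182, 0.406 and 0.298 in the Tibetan and 1.55, 0.442 and 0.723 in the Jintang ovaries. SERPING1, the C1 inhibitor that removes C1r and C1s from the complex, was at 124, 94.6 and 211 FPKM in the Tibetan and 325, 78.8 and 175 FPKM in the Jintang ovaries. Like C1R, it was highest in Jintang 1, followed by Tibetan 3, and lowest in Jintang 2. C1R plus C1S summed to between 1.63 and 3.15 times its level. The summed level of 11 fibroblast and stromal markers was 3811, 4365 and 2277 FPKM in the Tibetan and 11411, 6128 and 4028 FPKM in the Jintang ovaries. The collagens COL1A1, COL1A2 and COL3A1 made up 5176 of the 6128 FPKM in Jintang 2. Without them the sum was 1454, 1879 and 709 FPKM in Tibetan goats, against 2435, 951 and 1954 FPKM in Jintang goats. Both sums were highest in Jintang 1, as were C1R and C1S, and lowest in Tibetan 3, where C1R was second highest. In Jintang 2, where C1R and C1S were lowest, the sum with collagens was the second highest and that without them the second lowest. DCN, a matrix proteoglycan, was lowest in Jintang 2, where it held 531 of the 951 FPKM without collagens. DPT and THY1 were second lowest there (69.8 and 18.7 FPKM), and PDGFRA lay in between (48.2 FPKM). Other stromal markers went the other way in Jintang 2. FBN1 was highest there (36.8 FPKM), and LUM, POSTN and MFAP5 were exceeded only in Jintang 1 (159, 84.0 and 4.32 FPKM in Jintang 2). The part of stromal cells in these levels was not tested.

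C3, on which all complement pathways converge, measured 584, 711 and 1547 FPKM in Tibetan ovaries, against 1160.2, 850.1 and 995 FPKM in those of Jintang goats. The Jintang values lay inside the Tibetan range, and Tibetan 3 was 2.65 times Tibetan 1. CFD, the protease that starts the alternative pathway, measured 25.3, 29.0 and 28.0 FPKM in Tibetan ovaries, against 108, 8.12 and 38.4 FPKM in those of Jintang goats. The Tibetan ovaries were close together, and the Jintang ovaries spread to both sides of them by a ratio of 13.3. CFI, the protease that inactivates C3b, measured 2.33, 5.80 and 6.35 FPKM in Tibetan ovaries, against 12.5, 4.02 and 6.68 FPKM in those of Jintang goats, with Tibetan 1 lowest, Jintang 1 highest and the breeds overlapping. The ratio of C3 to CFI was 251, 123 and 244 in the Tibetan and 92.7, 211 and 149 in the Jintang ovaries.

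CFD is known as adipsin for its high level in fat cells. Most defining fat cell markers were near 0: ADIPOQ lay between 0.14 and 0.43 FPKM, LEP was listed at 0 in 5 libraries and at 0.10 FPKM in Jintang 2, and PLIN1 lay between 0.60 and 1.13 FPKM. CIDEC, a lipid droplet protein, reached 7.73 FPKM in Jintang 1, where CFD was highest, but was at 2.17 FPKM in Jintang 2, where CFD was lowest. The summed level of the 5 matched fat cell markers, mostly from LPL, was between 8.34 and 50.6 FPKM in Tibetan and between 14.5 and 54.9 FPKM in Jintang ovaries. Liver cell markers were also checked, because the liver is the main source of C3 in blood. ALB did not exceed 0.08 FPKM and APOB did not exceed 0.01 FPKM. Of the 7 matched liver markers only APOA1 exceeded 10 FPKM, at 136, 308 and 154 FPKM in the Tibetan and 6824, 3581 and 251 FPKM in the Jintang ovaries. It set the sum of that list, 143 to 319 FPKM and 257 to 6827 FPKM. AHSG, a liver plasma protein, was at 9.31 FPKM in Tibetan 3, where C3 was highest, and at most 0.29 FPKM elsewhere. The liver markers TTR and FGG did not peak there. TTR was at 2.89 FPKM in Tibetan 3 and highest in Tibetan 2 (8.04 FPKM), and FGG was at 2.46 FPKM and highest in Jintang 2 (5.77 FPKM). The part of fat or liver cells in CFD and C3 was not tested.

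C7 was the only gene of the terminal complex with a clear level. It measured 4.80, 22.9 and 65.9 FPKM in Tibetan ovaries, against 58.8, 35.1 and 52.6 FPKM in those of Jintang goats. Tibetan 1 stood low and Tibetan 3 high, with the Jintang ovaries between Tibetan 2 and Tibetan 3. Of the other terminal genes, 3 of 6 listed had a value and none passed the filter. C6 did not exceed 0.14 FPKM and C8B did not exceed 0.49 FPKM. C5 lay between 0.03 and 0.21 FPKM in 5 ovaries and at 2.90 FPKM in Tibetan 3, the ovary with the highest C3 and C7. C8A, C8G and C9 matched no gene by symbol and are not analysed here.

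The breeds were compared for the 6 genes that were not picked for their spread, with limma on log2(FPKM + 1) over all 13067 genes, and none passed at an adjusted p of 0.05. No gene of the whole table did (0%), although 13 did without Jintang 3, and 806 genes (6.17%) had an unadjusted p under 0.05, among them none of the 6. The ranges of the breeds overlapped in all 9 genes, where they did not overlap in 9.9% of all genes tested (Jintang above in 3.2% and below in 6.7%). Mean levels in Tibetan and Jintang ovaries were 212 ± 65.2 and 232 ± 168 FPKM (SD, n = 3 goats per breed here and below) for C1R, and 140.0 ± 7.08 and 145 ± 68.8 FPKM for C1S. They were 948 ± 523 and 1002 ± 155 FPKM for C3, 27.4 ± 1.90 and 51.4 ± 51.0 FPKM for CFD, 4.83 ± 2.18 and 7.74 ± 4.35 FPKM for CFI, and 31.2 ± 31.4 and 48.9 ± 12.3 FPKM for C7. In each of the 6 genes the larger of the SDs exceeded the distance between the means.

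The log2 difference, Jintang minus Tibetan, was widest for C7, at 1.21 (SE 0.77, 95% interval -0.55 to 2.98, limma adjusted p = 0.755). Without Tibetan 1 it was 0.29 and without Tibetan 3 it was 2.05. CFI differed by 0.55 (SE 0.46, interval -0.51 to 1.61, limma adjusted p = 0.787), which became 0.17 without Jintang 1 and 0.19 without Tibetan 1. CFD differed by 0.26 (interval -1.50 to 2.01, limma adjusted p = 0.939), and it was -0.58 without Jintang 1 and 1.204 without Jintang 2. For C3 the difference was 0.20 (interval -0.83 to 1.24, limma adjusted p = 0.920), and it was -0.017 with quantile normalization, -0.078 without Tibetan 1 and 0.62 without Tibetan 3. C1R and C1S differed by -0.068 (interval -1.24 to 1.10) and -0.056 (interval -0.89 to 0.78), with limma adjusted p of 0.976 and 0.972, and were at 0.059 and 0.071 with median-ratio scaling. Their FPKM means above were higher in Jintang ovaries and their log2 means lower, so the direction depends on the scale. Without Jintang 1 they were at -0.62 and -0.41, and without Jintang 2 at 0.35 and 0.24. The median over the 6 genes was 0.23 and over all genes tested -0.096, and median-ratio scaling moved the latter to 0.017. The intervals reach beyond a doubling in at least 1 direction for all but C1S, so the data do not show that the breeds have the same level.

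For the C1Q genes the breed difference is a description. The means were 35.3 ± 14.4 and 127 ± 152 FPKM for C1QA, 37.6 ± 14.97 and 161 ± 186 FPKM for C1QB, and 30.2 ± 8.71 and 144 ± 160 FPKM for C1QC. On the log2 scale Jintang minus Tibetan was 1.17, 1.46 and 1.58. Without Jintang 1 these became 0.17, 0.51 and 0.66, and without Jintang 2, the lower of the other Jintang ovaries, 1.93, 2.21 and 2.42. Without Tibetan 1, C1QA stood at 0.77.

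**Figure D4:**
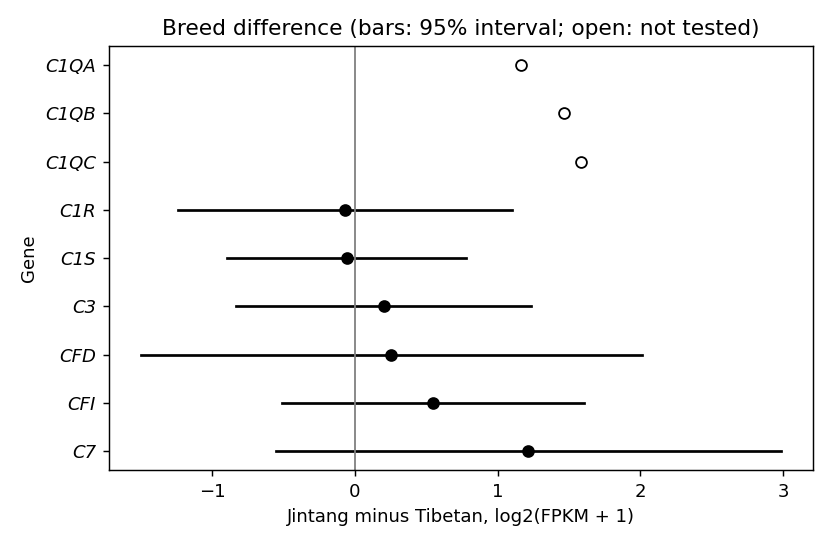
Difference of Jintang minus Tibetan ovaries on the log2(FPKM + 1) scale for the 9 genes, with 95% intervals from limma for the 6 tested genes and open points for the C1Q genes, which were not tested. Every interval includes 0, and that of C7 is the widest of the 6, from -0.55 to 2.98.

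Other complement genes were taken from lists by role. Of 45 listed genes 33 had a value and 21 passed the filter. None passed limma over all genes. Of the 21, 18 were on the Jintang side (41% of all genes tested) and 3 on the Tibetan side, at a median of 0.38, against -0.096 over all genes tested, and without Jintang 1 13 of the 21 were on the Jintang side (median 0.25). An unadjusted p under 0.05 was found for 2, the receptors C5AR2 and ITGAM, against 6.17% of all genes tested. The breeds did not overlap in 2 of the 21 genes, against the 9.9% of all genes given above.

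Of 13 listed activation genes, 7 were tested, 5 with a higher and 2 with a lower mean log2 level in Jintang ovaries, at a median of 0.37. COLEC12, a scavenger receptor with a collectin domain, was at 58.9, 68.7 and 31.3 FPKM in the Tibetan and 108, 26.6 and 72.1 FPKM in the Jintang ovaries, with no separation of the breeds. C2, the substrate of C1s, was at 2.54, 4.02 and 17.3 FPKM against 19.2, 3.44 and 6.76 FPKM. Its high ovaries, Jintang 1 and Tibetan 3, were also those with the highest C1R. The collectin COLEC11 reached 24.5 FPKM in Jintang 1 and lay between 1.64 and 5.09 FPKM elsewhere, and properdin (CFP), which stabilises the alternative pathway enzyme, reached 15.4 FPKM there and lay between 2.03 and 5.86 FPKM elsewhere. MASP2, a lectin pathway protease, was lowest in Jintang 1, at 9.69, 7.60 and 3.41 FPKM against 2.11, 2.29 and 8.57 FPKM. MASP1, another protease of that pathway, went the other way. It was highest in Jintang 1 (7.18 FPKM) and lowest in Tibetan 1 (1.25 FPKM). Factor B (CFB), the substrate of factor D, was highest in Tibetan 3 at 9.01 FPKM and lay between 3.06 and 5.22 FPKM elsewhere. COLEC10 was listed at 0 in all Jintang libraries and did not exceed 0.32 FPKM in the Tibetan ones. C4A, C4B, MBL2 and FCN2 matched no gene and are not analysed here.

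Of 16 listed regulators, 6 were tested, 5 on the Jintang and 1 on the Tibetan side (median 0.19). CD59, which blocks the membrane attack complex on the cell surface, was abundant and even, between 168 and 277 FPKM. CD55, which speeds the decay of the C3-cleaving enzymes, was at 15.2, 16.1 and 15.01 FPKM in the Tibetan and 9.25, 14.1 and 11.96 FPKM in the Jintang ovaries. All Jintang values lay below all Tibetan values, as in 6.7% of all genes tested, at a log2 difference of -0.38 (SE 0.26, limma adjusted p = 0.758). C1QBP, a mitochondrial protein that binds C1q, lay on the other side without overlap, at 32.2, 54.7 and 55.0 FPKM against 57.7, 160.3 and 55.7 FPKM. The gap to the Tibetan ovaries was small except in Jintang 2 (log2 difference 0.79, limma adjusted p = 0.743). SUSD4 lay between 1.12 and 7.86 FPKM, and C4BPB was listed at 0 in all Jintang libraries and did not exceed 0.19 FPKM in the Tibetan ones.

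Of 10 listed receptors, 8 were tested and all 8 had a higher mean log2 level in Jintang ovaries, at a median of 1.05, with no call by limma. Without Jintang 1, 7 of 8 did, at a median of 0.67. C5AR1, the receptor of the C5a fragment, was at 1.42, 4.24 and 2.71 FPKM in the Tibetan and 32.5, 3.58 and 7.19 FPKM in the Jintang ovaries. C5AR2, its relative, was at 3.45, 12.6 and 5.77 FPKM against 25.3, 9.16 and 15.2 FPKM (log2 difference 1.13, SE 0.49, limma adjusted p = 0.743). VSIG4, a C3b receptor of tissue macrophages, was at 0.38, 2.70 and 0.81 FPKM against 9.83, 0.38 and 3.52 FPKM. In these 3 receptors Jintang 1 was highest and Jintang 3 the next, as in the C1Q genes. ITGAM and ITGB2, the chains of the C3b-fragment receptor CR3, reached 14.6 and 40.6 FPKM in Jintang 1 and were lowest in Tibetan 1, at 0.94 and 3.47 FPKM. CD93, found on endothelium and myeloid cells, was high in both Jintang 1 (81.3 FPKM) and Jintang 2 (75.8 FPKM) and lay between 24.8 and 34.6 FPKM elsewhere. Several of these receptors are themselves myeloid genes, and the sums of macrophage markers given above were highest in Jintang 1 and lowest in Tibetan 1. Their part in the receptor levels was not tested.

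**Figure D5:**
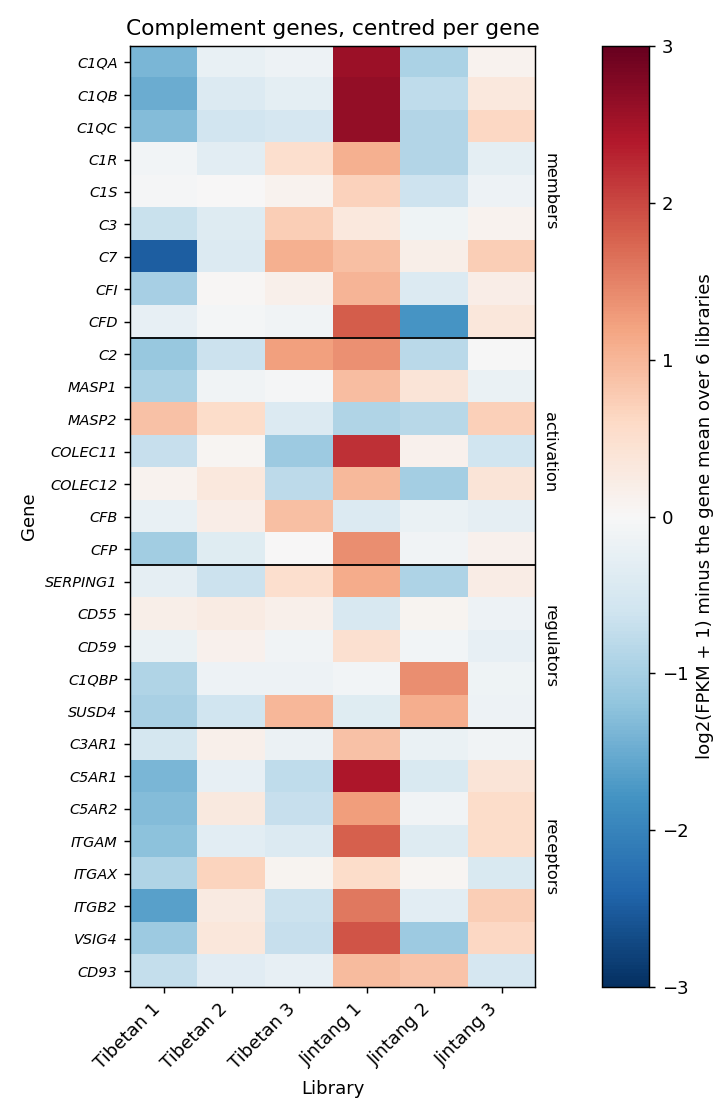
Level of the 9 complement genes and of other complement genes that passed the filter (rows) in the 6 libraries (columns), as log2(FPKM + 1) minus the mean of the gene, red above and blue below. Jintang 1 is red in the C1Q genes, COLEC11, C5AR1, ITGAM and VSIG4, while MASP2 is blue there.

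The genes nearest in pattern were sought for each of the 9 among all genes tested with a symbol, by the root mean square difference of log2 profiles centred on their own mean over the 6 libraries. C1QB was nearest to C1QA at 0.16, and C1QC to C1QB at 0.18. Beyond each other, the genes nearest to C1QA and C1QB were C5AR1 (0.26 from C1QB) and CD300LF, an inhibitory receptor of myeloid cells (0.30 from C1QA). C5AR1 (0.27) and CD300LF (0.32) were also near C1QC, followed by DKK3, a secreted protein of the Dickkopf family (0.38). CD300LF was at 0.71, 3.16 and 1.90 FPKM in the Tibetan and 17.0, 1.34 and 4.81 FPKM in the Jintang ovaries. The profiles were centred but not scaled, so a gene is near only where its differences are of the same size.

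C1R and C1S were 0.29 apart, and neither was the nearest gene to the other. C1R was nearest to CISH, a cytokine-induced signalling inhibitor (0.14), followed by NDUFA4L2, BCAM, MAN2B1 and FGF9 (up to 0.19). C1S was nearest to ABHD4 (0.094) and the lysosomal membrane gene LAPTM4A (0.096), followed by USP2, MCF2L and ATP6V0A1 (up to 0.12). C3 was nearest to CCDC159 (0.089), which did not exceed 2.83 FPKM, followed by GLA, IL17B, GJB5 and EVA1A (up to 0.15). CFI was nearest to the receptors GPR35 and GPR18 (both 0.13), followed by LHFPL2, TSPAN18 and DUSP2 (up to 0.18). CFD and C7 had more distant neighbours. CST6, a cysteine protease inhibitor, was 0.36 from CFD, followed by the growth factor FGF7 (0.40), catalase (CAT, 0.42), PODN and ABCA6 (0.44). NTN1, the guidance factor netrin, was 0.33 from C7, followed by DOCK5 (0.44), ABRACL, C20H5orf49 and PRKCB (0.55). With 6 libraries and 13067 genes, near profiles are a description of these libraries. Among the 9 genes themselves, C7 lay farthest from CFD (1.37), and CFI and C3 (0.45) were nearer to each other than either was to the C1Q genes (at least 0.71).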

How the data were processed

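Per the labels' protocols, RNA was extracted with TRIzol and libraries were made with a NEBNext kit. The values the authors deposited are FPKM per gene, per the file headers, in a file for each animal. A table of the whole series repeats them in its 6 columns and was not used. Per the submitters' processing notes, RSEM 1.2.0, TopHat2 2.0.10 and Bowtie2 2.1.0 are listed, with no roles stated. Which build and annotation served is not stated in those notes (not given in the sources used here). No coordinates are printed, and the planned look at promoter and protein sequences was not made. Gene symbols came from the RefSeq table of assembly ARS1.2 (16459 IDs matched by GeneID, 9 by transcript accession, 1036 without a match). Of 155 list entries 25 matched no gene.

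Breed was the single term of a limma 3.58.1 model (R 4.3.3) with a mean-variance trend, fitted to log2(FPKM + 1), a scale that understates differences of low genes. P-values were 2-sided and adjusted by Benjamini-Hochberg over 13067 genes, with a threshold of 0.05. Each library is 1 goat, so they measure the spread between goats. The procedure was also run on simulated data, where most of the smallest differences put in were not called. The column name of Tibetan 2 follows another pattern than those of the other 5 libraries, for a reason not stated. No label gives a batch. Marker lists were summed per library. Plots were made in Python 3.11.15 (matplotlib 3.10.9).

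The 9 genes and the lists were chosen with earlier results of these data known. The text names all 9, and per other complement list the up to 6 genes with the highest mean FPKM plus those without overlap between breeds, and per gene the 5 genes most alike in pattern. Some genes that this rule names are not reported here. Single markers with a clear level, such as CD68, TYROBP, MSR1, TREM2, PRLR, CIDEC and AHSG, were chosen after their values were seen. MASP1 was likewise added beside MASP2 outside this rule. Alternatives were other pseudocounts, filters and scalings, a fit without the trend, the goat number as a block and each library left out. The marker lists for lymphocytes, erythrocytes and endothelium were also summed: lymphocyte markers ran from 26.7 to 105 FPKM (Jintang 3 highest), endothelial markers from 235 to 525 FPKM (Jintang 1 highest), and the 2 matched erythrocyte markers summed to at most 0.13 FPKM.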

Additional observations from a re-analysis of the deposited data

How the results depend on the processing

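None of the 6 tested genes was called by limma under any of the 15 alternatives, and their adjusted p ran from 0.588 to 0.999. Over all genes 0 were called at 14 alternatives and 13 without Jintang 3. Directions reversed for C1R (0.059 with median-ratio scaling, 0.17 without Tibetan 3, 0.35 without Jintang 2, 0.066 without Jintang 3), C1S (0.071 with median-ratio scaling, 0.24 without Jintang 2, 0.0053 without Jintang 3), C3 (-0.017 with quantile normalization, -0.078 without Tibetan 1) and CFD (-0.58 without Jintang 1). The cause was not tested. With each library left out in turn, the log2 difference ran from -0.62 to 0.35 for C1R, -0.41 to 0.24 for C1S, -0.078 to 0.62 for C3 and -0.58 to 1.204 for CFD. The median log2 range of the 9 genes was 3.53, which includes the C1Q genes picked for their spread. Over the other 6 genes it was 1.98, and over all genes tested 1.15. With a library left out the value for the 9 ran from 1.48 (without Jintang 1) to 3.53, with 1.94 without Tibetan 1 and 2.05 without Jintang 2. Other scalings and pseudocounts gave 3.43 to 3.73. The other complement genes, counted without each library as an alternative chosen after seeing the data, were on the Jintang side in 13 to 18 of 21. With the goat number as a replicate block, 0 of 6 genes were called and 0 overall (581 genes with an unadjusted p under 0.05). No label says that goats were paired by number. Deviations from the breed means correlated at -0.018, -0.21 and -0.47 for goats 1, 2 and 3, and none of the goats correlated best with its own number. The deviations within a breed are tied to each other, so these values cannot settle whether the numbers pair the goats. Without the absolute depth, no counting limit can be given for low genes such as CFI.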
